A study of Tachysurus fulvidraco x Tachysurus vachelli with 9 samples.

Results

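The genes described here are *acsl5*, LOC113650341 and *dgat2*, which encode 3 enzymes of intestinal triglyceride resynthesis. LOC113650341 carries the product name 2-acylglycerol O-acyltransferase 2 (MGAT2, *Mogat2* in mammals). They were taken by gene name from a table of 26163 rows and occupy 4 of these rows, because *dgat2* names a second, short row without strand or product. They were selected on their measured FPKM and fold changes in these same libraries, low in Str and high in Rec, so these values are given as a description, without a test. Posterior intestine of hybrid yellow catfish (*Tachysurus fulvidraco* females crossed with *Pseudobagrus vachellii* males) was sequenced in 3 groups, with 3 libraries each. The Str group comprised fish sampled after 16 h of simulated transport, shaken in bags filled with water and oxygen. The Rec group comprised fish left for 96 h to recover after the same 16 h of transport. The Ctrl group comprised untreated fish, sampled at 0 h. Food had been withheld before the experiment, so Ctrl fish, sampled at 0 h, were fasted as well. Str fish were sampled after a further 16 h, so the time since food was withheld was not matched between Str and Ctrl. The hour of day of sampling is not given in the sources read. The sources read do not say whether Rec fish were fed during the 96 h. Transport and recovery therefore cannot be told apart from feeding state. Each library came from 1 fish, the sources read do not say from which bag, and the hybrid reads had been mapped to the genome of only the maternal species.

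After a meal, lipase in the gut lumen splits dietary triglyceride into free fatty acids and 2-monoacylglycerol, which enter the enterocyte. Inside the cell, long-chain acyl-CoA synthetases such as ACSL5 couple fatty acids to coenzyme A, MGAT2 joins an acyl-CoA to monoacylglycerol, and a diacylglycerol acyltransferase, DGAT1 or DGAT2, adds the last acyl chain. In mammals this monoacylglycerol route makes most of the triglyceride that enterocytes load into chylomicrons after a meal, while a parallel route builds triglyceride from glycerol-3-phosphate. DGAT2 also fills cytosolic lipid droplets in several tissues.

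Total counts per library ranged from 48605412 to 60279138 in Str, from 54829614 to 73110636 in Rec and from 60670586 to 63899568 in Ctrl. Low counts piled up at 4, 8 and 12, so 1 read pair was taken as 4 counts, which the sources read do not state. On that basis, a level under 12 counts in a library (3 pairs) was not distinguished from 0, considering counting error alone. Levels are given in FPKM (fragments per kilobase of transcript, scaled to library depth), and fold changes come from edgeR on the counts of the 17244 rows that reached 1 FPKM in 3 or more libraries. Over all these rows, the median log2 fold change was within 0.03 of 0 in each comparison. The libraries expressed enterocyte markers: villin 1, cadherin 17, aminopeptidase N, the peptide transporter of family 15 and intestinal fatty acid-binding protein were among the 10 of 12 enterocyte marker loci that entered the fit. The summed level of the 12 loci was 1986 to 3096 FPKM in Str, 11082 to 23793 FPKM in Rec and 4671 to 10388 FPKM in Ctrl. This sum includes fatty acid- and bile acid-binding proteins, with *fabp6* alone at 12067 FPKM in Rec-3. Without these proteins, the mean log2 FPKM of the 7 other markers in the fit overlapped between Rec and Ctrl. In bulk tissue, fewer enterocytes and less RNA of a gene per enterocyte cannot be told apart.

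*acsl5* (MSTRG.15679, minus strand of scaffold NW_020848306.1, bases 1501293 to 1510171 in the coordinates of the deposited table, of unstated genome build) almost disappeared at the end of transport. Its level was 0.421, 0.384 and 0.109 FPKM in Str-1, Str-2 and Str-3, against 12.4, 10.6 and 28.9 FPKM in Ctrl-1, Ctrl-2 and Ctrl-3. All 3 Str libraries lay far below the lowest Ctrl library, and the values in Str rest on 89, 79 and 19 counts. The Str group averaged 0.305 ± 0.171 FPKM and the Ctrl group 17.3 ± 10.1 FPKM (SD, n = 3 each), which is a log2 fold change of -5.72 (standard error 0.64), or 52.8-fold lower in Str. This was the 48th lowest log2 fold change of the 17244 rows.

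In Rec-1, Rec-2 and Rec-3 the *acsl5* level was 20.9, 18.0 and 40.6 FPKM (mean 26.5 ± 12.3 FPKM, SD, n = 3). The Rec group lay above every Str library and overlapped the Ctrl group, in which Ctrl-3 was higher than Rec-1 and Rec-2. The log2 fold change was 6.49 (standard error 0.66) in Rec compared with Str, a 90.1-fold higher level, and 0.77 (standard error 0.52) in Rec compared with Ctrl. The last 362 bases of *acsl5* overlap *zdhhc6*, a palmitoyltransferase gene on the opposite strand. Whether the counting used strand was not stated, so reads from this overlap cannot be assigned to either gene. *zdhhc6* had 4.83 to 6.17 FPKM in Str, 5.64 to 7.47 FPKM in Rec and 5.79 to 8.60 FPKM in Ctrl.

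With *dgat2* taken as its annotated row, LOC113650341, the MGAT2 locus (MSTRG.5689, minus strand of scaffold NW_020847888.1, bases 2979970 to 2982237), was the most abundant of the 3 genes in every library and changed least in both comparisons with Str. It had 20.0, 13.3 and 9.72 FPKM in Str-1, Str-2 and Str-3, against 41.3, 33.5 and 52.1 FPKM in Ctrl-1, Ctrl-2 and Ctrl-3. The 2 groups did not overlap, and the highest Str library stood below the lowest Ctrl library. The means were 14.3 ± 5.23 FPKM in Str and 42.3 ± 9.34 FPKM in Ctrl (SD, n = 3 each), with a log2 fold change of -1.51 (standard error 0.34), or 2.85-fold lower in Str. In the order of all log2 fold changes it was the 1433rd lowest.

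After recovery LOC113650341 had 52.6, 71.2 and 70.9 FPKM in Rec-1, Rec-2 and Rec-3 (mean 64.9 ± 10.6 FPKM, SD, n = 3). All Rec libraries were above all Str libraries, with a log2 fold change of 2.30 (standard error 0.34), or 4.92-fold. They were also above all Ctrl libraries, though the lowest Rec value, 52.6 FPKM, was hardly different from the highest Ctrl value, 52.1 FPKM. The log2 fold change in Rec compared with Ctrl was 0.79 (standard error 0.33).

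*dgat2* (MSTRG.5688, minus strand of the same scaffold NW_020847888.1, bases 2958825 to 2970287) encodes the enzyme of the final acylation. It had 0.501, 0.272 and 0.376 FPKM in Str-1, Str-2 and Str-3, against 2.54, 3.57 and 12.1 FPKM in Ctrl-1, Ctrl-2 and Ctrl-3. Again no Str library reached the lowest Ctrl library, and the Str values rest on 49, 26 and 31 counts. The means were 0.383 ± 0.114 FPKM in Str and 6.07 ± 5.24 FPKM in Ctrl (SD, n = 3 each). The log2 fold change was -3.84 (standard error 0.76), or 14.3-fold lower in Str, and the 138th lowest of all rows. Ctrl-3 carried a large part of the Ctrl mean, and without this library the log2 fold change was -2.97.

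In Rec-1, Rec-2 and Rec-3 *dgat2* had 28.9, 54.9 and 11.3 FPKM (mean 31.7 ± 21.9 FPKM, SD, n = 3). The level in every Rec library was above that in every Str library, with a log2 fold change of 6.55 (standard error 0.86), or 93.5-fold. Rec-1 and Rec-2 exceeded every Ctrl library, whereas Rec-3 fell slightly short of Ctrl-3. The log2 fold change in Rec compared with Ctrl was 2.71 (standard error 0.71). It was 1.93 without Rec-2 and 3.59 without Ctrl-3, so the size of the difference depended on single fish. Scaled by library size with TMM factors (CPM) instead of FPKM, Rec-3 stood at 17.59 and Ctrl-3 at 16.997 CPM, and the Rec and Ctrl groups then did not overlap.

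**Figure D1:**
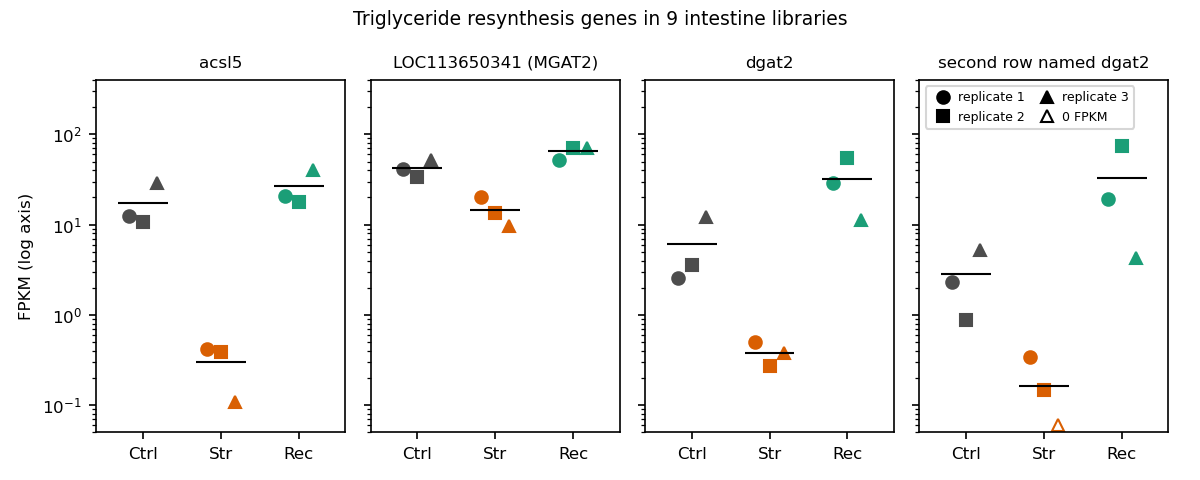
Levels of *acsl5*, LOC113650341 (MGAT2), *dgat2* and the second row named *dgat2* in each library, in FPKM on a log axis, for the Ctrl, Str and Rec groups. Each symbol is 1 library, the shape gives the replicate number, the line is the group mean, and the open triangle at the bottom of the axis is the value of 0 in Str-3. In all 4 panels the Str libraries lie below the others, by a wide gap for *acsl5* (0.109 to 0.421 FPKM in Str) and a smaller one for LOC113650341 (9.72 to 20.0 FPKM in Str).

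The second row named *dgat2* (MSTRG.5687, bases 2956654 to 2957668, no strand) lies 1156 bases from the annotated *dgat2* row, in the 2878 bases between it and *uvrag*, an autophagy and endosome gene. Its level was 0.345 FPKM in Str-1, 0.147 FPKM in Str-2 and 0 FPKM in Str-3 (23, 10 and 0 counts), against 2.30, 0.869 and 5.31 FPKM in Ctrl-1, Ctrl-2 and Ctrl-3. In Rec-1, Rec-2 and Rec-3 it had 19.1, 75.0 and 4.25 FPKM. The order of the libraries was close to that of the annotated row, with Rec-2 highest in both and Ctrl-3 highest of Ctrl in both (Pearson r = 0.960 and Spearman rho = 0.967 across the 9 libraries). Because Str-2 and Str-3 were under 12 counts, no fold change against Str is given for this row. Whether its reads belong to *dgat2* transcripts was not tested.

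Read across the 4 rows, the Str group was below the Ctrl group without overlap in 4 of 4 rows and above it in 0, against 16.1% and 14.4% of all rows tested. The Rec group was above the Str group without overlap in 4 of 4 rows and below it in 0, against 11.8% and 17.2% of all rows tested. The Rec group was above the Ctrl group without overlap in 1 of 4 rows, LOC113650341, and below it in 0, against 2.56% and 7.42% of all rows tested, and the other 3 overlapped. The rule chose these genes for this pattern, so nothing is read from these counts. All 4 rows passed the filter on low values, *acsl5* and both *dgat2* rows through Ctrl and Rec alone, since each was below 1 FPKM in every Str library.

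The order of the 3 genes, with *dgat2* taken as its annotated row, differed between the groups. In each Str library LOC113650341 was highest and *acsl5* and *dgat2* were both below 1 FPKM. Within Str, *acsl5* was below *dgat2* in Str-3 and above it in Str-2, so these neighbours in the order did not separate. In each Ctrl library the order was LOC113650341, *acsl5*, *dgat2*. In Rec, *dgat2* was above *acsl5* in Rec-1 and Rec-2 and below it in Rec-3, and LOC113650341 remained highest in all 3. The second row named *dgat2* had 75.0 FPKM in Rec-2, above LOC113650341 at 71.2 FPKM.

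Fish of the same group also differed from each other, and not in the same way for each gene. In FPKM, all 4 rows were highest in Ctrl-3 among the Ctrl libraries. In Rec, *dgat2* was highest in Rec-2 and lowest in Rec-3, whereas *acsl5* was highest in Rec-3 and lowest in Rec-2. LOC113650341 was lowest in Rec-1, with the other 2 Rec libraries within 1 FPKM of each other. Some of these orders depended on the unit. By TMM-scaled CPM, LOC113650341 was highest in Ctrl-1 of Ctrl (38.6 CPM, against 37.5 CPM in Ctrl-3). On that scale *acsl5* was lowest in Rec-1 (76.6 CPM, against 77.3 CPM in Rec-2). LOC113650341 then had 72.0 CPM in Rec-2 and 56.5 CPM in Rec-3. Across the 9 libraries, log2(FPKM + 1) of *acsl5* and LOC113650341 correlated with Pearson r = 0.955, that of *dgat2* and LOC113650341 with r = 0.886, and that of *acsl5* and *dgat2* with r = 0.836. These 9 points share the 3 groups, and the values describe these libraries only.

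The other loci of the same enzyme families that entered the fit did not pass in Str compared with Ctrl by edgeR, and an ACSL1 locus passed by DESeq2. Their differences were smaller than those of *acsl5* and *dgat2*, which were chosen on these values, so nothing is read from this. LOC113650341, with a log2 fold change of -1.51, differed no more than LOC113635421, an ACSL1-like locus (1.52, standard error 0.86). Of the 4 DGAT loci in the table, with the second row named *dgat2* left out, *dgat2* made up 0.232% to 0.668% of the summed FPKM in Str, 7.16% to 35.1% in Rec and 2.66% to 10.8% in Ctrl. The sum of the 4 loci was 75.0 to 117 FPKM in Str, 137 to 158 FPKM in Rec and 76.2 to 112 FPKM in Ctrl, so the Str and Ctrl sums overlapped while *dgat2* itself did not. LOC113641502, a second DGAT2-like locus, had 39.3, 77.6 and 63.3 FPKM in Str-1 to Str-3, against 21.8, 20.3 and 43.3 FPKM in Ctrl-1 to Ctrl-3. Its log2 fold change was 1.15 (standard error 0.49), with an adjusted p of 0.196 (edgeR's quasi-likelihood test with Benjamini-Hochberg adjustment over all rows tested), which did not pass the threshold of 0.05, and the groups overlapped.

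LOC113648068, the DGAT1 locus, was lower in each Str library than in each Ctrl library. It had 19.4, 28.1 and 14.6 FPKM in Str, against 61.2, 42.7 and 39.7 FPKM in Ctrl (log2 fold change -1.19, standard error 0.50, adjusted p = 0.188 by edgeR). A second DGAT1-like locus, LOC113644625, averaged 12.3 ± 3.15 FPKM in Str and 12.2 ± 3.96 FPKM in Ctrl (SD, n = 3 each). Neither passed the test in any comparison by edgeR, and DESeq2 called LOC113644625 higher in Rec compared with Str (adjusted p = 0.0451). In Rec-2, *dgat2* was the highest of the 4 DGAT loci. It was the lowest of them in every Str and Ctrl library and in Rec-3.

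The MGAT family had 2 loci. LOC113650341 made up 37.6% to 41.4% of their summed FPKM in Str, 63.4% to 73.1% in Rec and 52.0% to 62.8% in Ctrl, so the 3 groups did not overlap in this share. The other locus, LOC113646111 (2-acylglycerol O-acyltransferase 2-A-like), had 32.5, 22.1 and 13.7 FPKM in Str and 24.5, 22.7 and 48.0 FPKM in Ctrl, with overlapping groups (log2 fold change -0.40, standard error 0.44, adjusted p = 0.638 by edgeR). LOC113650341 was therefore the lower of the pair in each Str library and the higher in each Rec and Ctrl library.

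Among 9 ACSL loci, *acsl5* held 0.169% to 1.12% of the summed FPKM in Str, 31.0% to 32.3% in Rec and 14.9% to 25.6% in Ctrl. The other 8 loci together had 37.3 to 108 FPKM in Str, 37.8 to 90.4 FPKM in Rec and 57.3 to 84.0 FPKM in Ctrl, which overlap. *acsl4*, which prefers arachidonate in mammals, was the most abundant of them on average, with 9.68, 62.4 and 32.8 FPKM in Str and 35.6, 25.8 and 46.0 FPKM in Ctrl (log2 fold change 0.02, standard error 0.58). LOC113635418, an ACSL1 locus, was higher in each Str library than in each Ctrl library. It had 17.3, 20.5 and 15.7 FPKM in Str and 8.36, 10.8 and 8.85 FPKM in Ctrl, and its log2 fold change of 0.98 (standard error 0.25) just missed the threshold (adjusted p = 0.0506 from edgeR). DESeq2 called this locus higher in Str compared with Ctrl (adjusted p = 0.00434) and lower in Rec compared with Str (adjusted p = 0.0383), and edgeR called it in Str compared with Ctrl with RLE scaling (adjusted p = 0.0493). By edgeR with TMM, 0 of the 6 ACSL loci besides *acsl5* that entered the fit passed in these comparisons, and 2 ACSL6-like loci were too low to enter it. How reads that fit several loci of a family were counted was not stated, so the split within a family is uncertain.

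**Figure D2:**
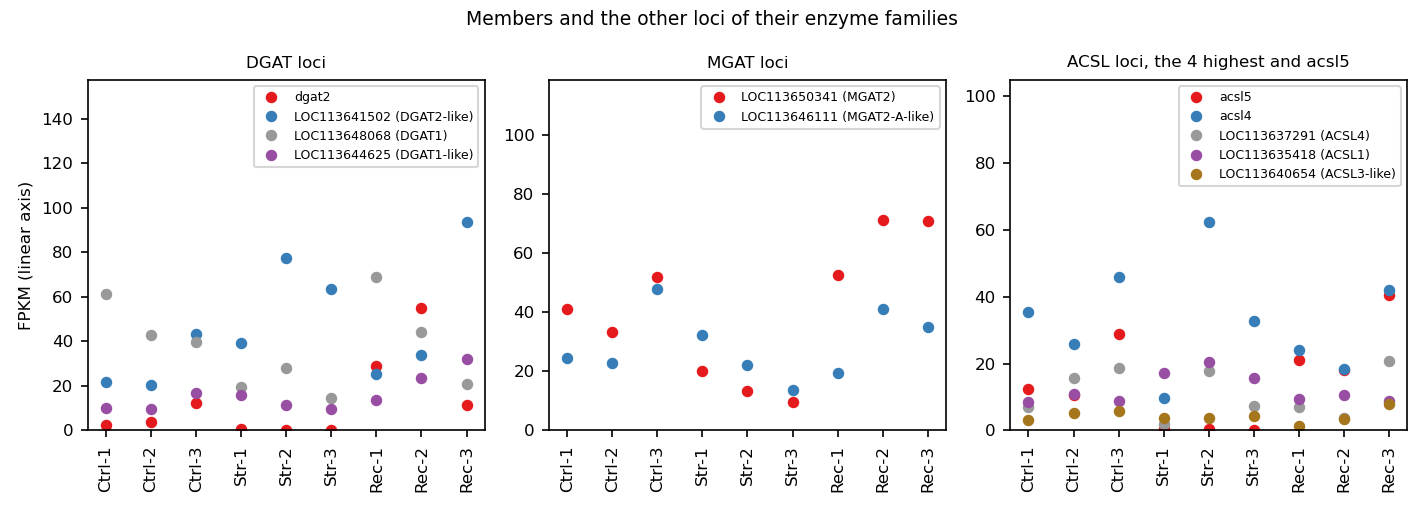
FPKM on a linear axis in each of the 9 libraries for the DGAT loci, the MGAT loci, and *acsl5* with the 4 other ACSL loci of highest level. Each point is 1 library, and colours mark loci. *dgat2* and *acsl5* (red) lie near 0 in Str-1 to Str-3 as do some ACSL loci of low level (LOC113640654 at 3.62 to 4.22 FPKM in Str), while others do not, such as LOC113641502 with 39.3 to 77.6 FPKM in Str and 20.3 to 43.3 FPKM in Ctrl.

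To place the 3 genes among their neighbours in lipid handling, 108 other rows in 7 lists were followed in the same fit. In Str compared with Ctrl, 2 of the 108 rose and 8 fell by edgeR, and over all rows tested 2.78% rose and 3.1% fell. DESeq2 called 6 of them higher and 19 lower, and 2540 of all 17244 rows in either direction. The DESeq2 counts given below for single lists in this comparison are to be read beside that total. Their median log2 fold change was -0.26, beside 0.00 over all rows. Of the 108, 23 rose and 7 fell in Rec compared with Str, beside 5.03% and 4.11% over all rows, with a median log2 fold change of 0.50 beside 0.03. By limma on log2(FPKM + 1), the split over all rows in Rec compared with Str was 654 higher and 900 lower, against 868 and 709 by edgeR.

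In the step that activates fatty acids, 0 of 16 other rows passed in Str compared with Ctrl by edgeR or limma, 2 passed by DESeq2, and 5 had an unadjusted p below 0.05 in edgeR. Of all 17244 rows tested, 3980 had an unadjusted p below 0.05 in this comparison. LOC113659995 (very long-chain acyl-CoA synthetase) rose in Rec, with 6.36 ± 0.108 FPKM in Rec and 2.03 ± 0.291 FPKM in Str (SD, n = 3 each), a log2 fold change of 1.77 (standard error 0.29, adjusted p = 0.0122 by edgeR). LOC113652897 (long-chain fatty acid transport protein 1) fell by 0.93 on the log2 scale in the same comparison. Among 6 other rows for MGAT, DGAT and sterol acyltransferases, 0 passed in Str compared with Ctrl by edgeR, DESeq2 or limma, and 2 had an unadjusted p below 0.05 in edgeR. LOC113643245 (sterol O-acyltransferase 2-like), of the family that esterifies cholesterol, rose in Rec compared with Str (43.7 ± 8.28 FPKM in Rec and 11.1 ± 7.88 FPKM in Str, SD, n = 3 each, log2 fold change 2.08, adjusted p = 0.0324 from edgeR).

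The parallel glycerol-3-phosphate route moved in both directions, with 1 of 20 rows higher and 3 lower in Str than in Ctrl by edgeR. DESeq2 called 2 higher and 5 lower. In Rec compared with Str, edgeR called 5 of the 20 higher and 1 lower. *lpin1*, a phosphatidate phosphatase and coactivator of fasting gene programmes in mammals, rose to 16.3, 20.8 and 15.3 FPKM in Str, against 0.442, 1.08 and 0.379 FPKM in Ctrl. Its log2 fold change was 4.85 (standard error 0.47, adjusted p = 0.0029 by edgeR), and in Rec compared with Str it fell by 5.05 on the log2 scale. *lpin1* therefore ran opposite to the 3 triglyceride genes in these libraries. LOC113658632, an LPIN1-like locus of low level, did not. It had 0.723 to 0.918 FPKM in Str and 1.15 to 2.40 FPKM in Ctrl (log2 fold change -1.10, adjusted p = 0.104 by edgeR). This locus rose in Rec compared with Str (1.49, adjusted p = 0.0353 by edgeR). The 3 genes of this route that fell in Str were *agpat3*, which acylates lysophosphatidate (log2 fold change -2.25, adjusted p = 0.0205), *lpin2* (-1.73, adjusted p = 0.0361) and *gpd1l* (-1.64, adjusted p = 0.043), all from edgeR. All 3 rose again in Rec compared with Str, with log2 fold changes of 2.85, 1.73 and 2.08. *gpam*, the mitochondrial glycerol-3-phosphate acyltransferase gene 15659 bases from *acsl5*, had 1.49 to 2.38 FPKM in Str and 0.966 to 3.70 FPKM in Ctrl in its annotated row (MSTRG.15685). A second row named *gpam* (MSTRG.15686), without strand or product, had 2.21 to 6.19 FPKM in Str and 2.99 to 3.84 FPKM in Ctrl.

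Most genes of uptake and intracellular carriage in the fit rose in Rec compared with Str. Their list, which also covers lipolysis, matched 13 loci, of which 9 entered the fit. Its lipolysis loci, *cel*, LOC113639772 (pancreatic triacylglycerol lipase-like) and *clps* (colipase), did not enter it. *cd36*, a fatty acid receptor of the plasma membrane, had 39.4 ± 7.80 FPKM in Str and 186 ± 50.2 FPKM in Ctrl (SD, n = 3 each, log2 fold change -2.20, adjusted p = 0.0201 from edgeR). By edgeR it was the 1 of 9 rows of this list that fell in Str, whereas DESeq2 called 4 lower, among them *fabp2* and *fabp1* (edgeR adjusted p = 0.0596 and 0.0786), and the median log2 fold change of the list was -1.24. Those that rose in Rec numbered 6 of the 9, with a list median of 2.67. They included *cd36* (2.51), *fabp2* (3.68) and *fabp1* (3.84), which bind fatty acids in the cytosol, and *dbi*, the acyl-CoA-binding protein gene (3.95), all as log2 fold changes.

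Of the rows for chylomicron assembly, edgeR called 0 of 15 higher and 1 lower in Str than in Ctrl, and 5 higher and 0 lower in Rec than in Str. DESeq2 called 0 higher and 3 lower in Str than in Ctrl. The 5 include LOC113662902 (MSTRG.12352), listed through an apolipoprotein annotation although its product name is platelet-activating factor acetylhydrolase IB subunit beta. The gene that fell was *tm6sf2*, a factor of lipoprotein lipidation, with 5.39 ± 0.576 FPKM in Str and 17.8 ± 9.87 FPKM in Ctrl (SD, n = 3 each, log2 fold change -1.64, adjusted p = 0.0311 from edgeR). LOC113659499 (apolipoprotein B-100), the scaffold protein of these particles, had 25.1 to 34.6 FPKM in Str and 36.4 to 65.1 FPKM in Ctrl and did not pass (log2 fold change -0.71, adjusted p = 0.279 from edgeR). A second locus, LOC113655586 (apolipoprotein B-100-like), had 42.6 to 110.4 FPKM in Str and 142.5 to 214.9 FPKM in Ctrl (log2 fold change -1.15, adjusted p = 0.283 from edgeR). LOC113655586 was 1 of the 5 that rose in Rec compared with Str (2.27, adjusted p = 0.049 from edgeR), although these groups overlapped. The annotated *apoc1* row (MSTRG.345) had 42.3, 21.01 and 28.5 FPKM in Str, against 1361, 260.0 and 740.3 FPKM in Ctrl, which missed the threshold (adjusted p = 0.0661 from edgeR). DESeq2 called this row lower in Str (adjusted p = 2.55e-05), as did edgeR with only these 2 groups in the fit (adjusted p = 0.0184). It rose in Rec compared with Str, with a log2 fold change of 8.15 (standard error 1.53) and 371.9 to 17705 FPKM in Rec.

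Lipid droplet genes moved in both directions, with 1 of 14 rows higher and 2 lower in Str than in Ctrl, and 2 higher and 4 lower in Rec than in Str. These counts were the same by edgeR and DESeq2. *pnpla2*, the adipose triglyceride lipase gene, rose in Str (18.5 ± 4.86 FPKM in Str and 6.49 ± 1.94 FPKM in Ctrl, SD, n = 3 each, log2 fold change 1.59, adjusted p = 0.0216 from edgeR). *cideb*, which promotes the lipidation of lipoproteins in mammalian liver, fell (35.1 ± 6.60 FPKM in Str and 89.1 ± 4.96 FPKM in Ctrl, log2 fold change -1.30, adjusted p = 0.0296 from edgeR). LOC113645504, a further locus named patatin-like phospholipase domain-containing protein 2, fell as well (log2 fold change -2.84, adjusted p = 0.0404 from edgeR), so loci with the same product name moved in opposite directions. Of 28 rows for transcriptional regulators, 1 fell in Str by edgeR, LOC113654968 (homeobox protein CDX-1), an intestinal identity factor (log2 fold change -1.33, adjusted p = 0.0462 from edgeR). DESeq2 called 2 of the 28 higher and 4 lower in Str. An unadjusted p below 0.05 in edgeR was found for 9 of the 28, and for 3980 of all 17244 rows. LOC113654968 rose again in Rec compared with Str (1.32), and *ppargc1a*, a coactivator of oxidative metabolism, and LOC113634138 (carbohydrate-responsive element-binding protein-like) rose with log2 fold changes of 1.92 and 2.00. *nr1h3*, the liver X receptor alpha gene, fell by 1.01 on the log2 scale.

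In Rec compared with Ctrl, edgeR called 0 of the 108 rows and 0 of all rows tested, with 1002 rows at an unadjusted p below 0.05. DESeq2 called 6 of the 108 and 115 of all rows, and limma called 0 rows on log2(FPKM + 1) and 1 row on log2(FPKM + 0.1). These calls rested on few fish. Of the 10 named calls in Str compared with Ctrl, only *lpin1* passed without each library in turn. Leaving out Ctrl-1, Ctrl-2 or Ctrl-3 lost 8, 7 or 9 of them, and leaving out Str-1, Str-2 or Str-3 lost 7, 7 or 9. Of the 23 named calls in Rec compared with Str, *lpin1* and LOC113659995 passed without each library. Leaving out Str-1, Str-2 or Str-3 lost 10, 11 or 21 of them, and leaving out Rec-1, Rec-2 or Rec-3 lost 4, 12 or 3. Of the 33 calls in both comparisons, 15 were lost with the replicate number as a block, 11 with only the pair of groups in the fit, 5 by limma on log2(FPKM + 1), 5 without the filter on low values, 3 by limma on log2(FPKM + 0.1) and 3 by DESeq2.

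**Figure D3:**
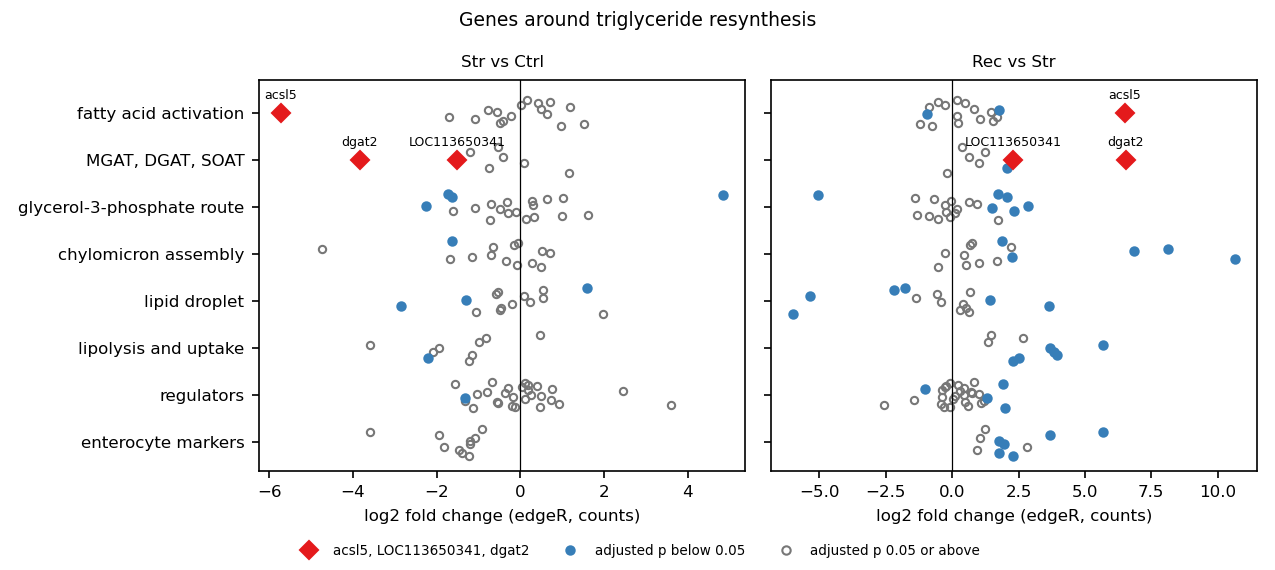
Log2 fold changes from edgeR for Str compared with Ctrl and Rec compared with Str, on separate horizontal scales, for the genes of 7 lipid lists and the enterocyte markers. Circles are single rows of the table, filled where the adjusted p was below 0.05, red diamonds are *acsl5*, LOC113650341 and *dgat2*, and a row of *apoc1* at 0 in all Str libraries is not drawn. *acsl5* at -5.72 and *dgat2* at -3.84 lie to the left of the other rows of their own lists in Str compared with Ctrl, and to the right of them in Rec compared with Str, at 6.49 and 6.55.

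Enterocyte markers differed in the same direction as the 3 genes. In Str compared with Ctrl, 10 of the 10 enterocyte markers in the fit had a negative log2 fold change (median -1.31), of which 9 had an unadjusted p below 0.05 in edgeR. Of all 17244 rows tested, 3980 had such a p. After adjustment 0 of the 10 markers passed in edgeR, 2 in limma and 5 in DESeq2. In Rec compared with Str 6 of 10 rose (median 1.86). To set the 3 genes beside them, the mean log2 FPKM of the 7 markers that are not fatty acid- or bile acid-binding proteins was subtracted in each library, a comparison added after the values were seen. The mean of these 7 was 1.36 lower in Str than in Ctrl on the log2 scale (6.58 to 7.27 in Str and 8.04 to 8.37 in Ctrl). In Rec this mean was 0.12 higher than in Ctrl, with overlap (8.14 to 8.53 in Rec).

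Relative to these markers, *acsl5* was 23.4-fold lower in Str than in Ctrl (difference -4.55 on the log2 scale) and *dgat2* 5.03-fold lower (difference -2.33), and neither overlapped between the 2 groups. LOC113650341 differed by only -0.24, and its groups overlapped (-3.54 to -2.44 in Str and -2.97 to -2.67 in Ctrl). In Rec compared with Str the differences were 5.10 for *acsl5*, 4.66 for *dgat2* and 0.75 for LOC113650341, the last with overlap. In Rec compared with Ctrl, *dgat2* was 2.33 higher without overlap, whereas relative to all 10 markers it was 1.89 higher with overlap. *acsl5* and LOC113650341 overlapped between Rec and Ctrl under both sets of markers. The share of all rows that separate after the same subtraction was not computed. The 3 genes were chosen as low in Str and high in Rec, so nothing is read from these separations.

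**Figure D4:**
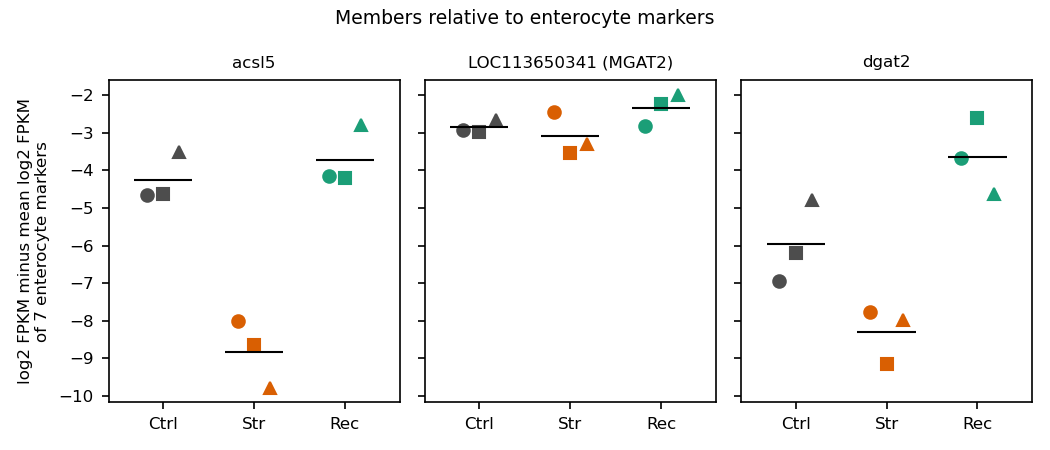
Log2 FPKM of *acsl5*, LOC113650341 and *dgat2* in each library after subtraction of the mean log2 FPKM of 7 enterocyte markers, for the Ctrl, Str and Rec groups. Symbols are libraries, with circles, squares and triangles for replicates 1, 2 and 3, and lines are group means. *acsl5* and *dgat2* stay below the other groups in Str, while LOC113650341 in Str (-3.54 to -2.44) spans its range in Ctrl (-2.97 to -2.67).

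Markers of other cell types were also followed. The 11 liver marker loci summed to 14.8 to 44.4 FPKM in Str, 4.99 to 16.4 FPKM in Rec and 4.92 to 8.56 FPKM in Ctrl, with Str above Ctrl and overlapping Rec, and 5 of the 11 in Str, 9 in Rec and 8 in Ctrl were below 1 FPKM throughout the group. The 4 adipose marker loci summed to 22.9 to 28.0 FPKM in Str, 11.4 to 17.9 FPKM in Rec and 12.6 to 33.0 FPKM in Ctrl. The 7 smooth muscle marker loci summed to 4931 to 29658 FPKM in Str, 11780 to 21002 FPKM in Rec and 7232 to 17598 FPKM in Ctrl. In Str compared with Ctrl, 6 of the 6 in the fit had a positive log2 fold change (median 0.67), and 0 had an unadjusted p below 0.05 in edgeR. The 19 exocrine pancreas loci summed to 13.8 to 16.95 FPKM in Str, 17.3 to 26.8 FPKM in Rec and 12.1 to 284 FPKM in Ctrl. The highest sum was that of Ctrl-3, which in FPKM was also the Ctrl library with the most *acsl5*, LOC113650341 and *dgat2*. By TMM-scaled CPM, LOC113650341 was slightly higher in Ctrl-1 (38.6 CPM) than in Ctrl-3 (37.5 CPM). Of 9 leukocyte markers in the fit, 4 fell in Str compared with Ctrl, and 4 rose in Rec compared with Str. No marker of liver, exocrine pancreas, adipose tissue, smooth muscle, erythrocytes or skeletal muscle passed in Str compared with Ctrl by edgeR. An unadjusted p below 0.05 was found for 2 of 4 liver and 4 of 6 exocrine pancreas markers in the fit, and for 3980 of all 17244 rows. DESeq2 called 2 of these liver markers higher and 1 of the exocrine pancreas markers lower, and limma on log2(FPKM + 1) called 1 liver marker higher. The part of these markers in the levels of the 3 genes was not tested.

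The annotated *dgat2* row and LOC113650341 are neighbours on scaffold NW_020847888.1, 9682 bases apart on the same strand, with no other row of the table between them. The gene on the *dgat2* side, *uvrag*, had 8.70 to 9.66 FPKM in Str, 9.81 to 9.97 FPKM in Rec and 10.02 to 11.2 FPKM in Ctrl, a much smaller difference than at *dgat2*. LOC113650338 (microtubule-associated protein 6), 2427 bases from LOC113650341 on the opposite strand, stayed below 2 FPKM in every library and did not enter the fit. Beside *acsl5*, *vti1a*, a vesicle SNARE gene on the other side of *zdhhc6*, had 6.58 to 9.09 FPKM in Str and 4.71 to 7.43 FPKM in Ctrl. LOC113638924 (guanylate cyclase 2G-like), 1875 bases from *acsl5* on its other side, stayed below 1 FPKM in every library, with 0 to 0.0205 FPKM in Str and 0.493 to 0.687 FPKM in Rec. *tectb* (beta-tectorin), 10903 bases from *acsl5*, was also below 1 FPKM in every library, with 0 FPKM in each Str library, 0.224 to 0.640 FPKM in Rec and 0.0631 to 0.149 FPKM in Ctrl. The second *dgat2* row, described above, was low in Str like *dgat2* itself.

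The genes whose log2(FPKM + 1) followed each member most closely over the 9 libraries were of mixed kinds. They were sought among 9482 tested rows with an informative name and a group mean of 5 FPKM or more. For *acsl5* they were *stard4*, a cholesterol carrier (Pearson r = 0.977), *eci2*, an isomerase of fatty acid oxidation (0.976), LOC113643210 (tapasin-like), *slc39a5*, a zinc transporter, and LOC113644382, a tumor necrosis factor alpha-induced protein 8-like protein. *stard4* had 5.73 to 7.12 FPKM in Str, 23.5 to 46.1 FPKM in Rec and 17.8 to 22.5 FPKM in Ctrl. Without the Str libraries, r between *acsl5* and *stard4* over the other 6 was 0.869. For LOC113650341 they were *hemgn* (0.984, and 0.972 without Str), *slc37a4*, the glucose-6-phosphate exchanger of the endoplasmic reticulum (0.981), LOC113658288 (solute carrier family 35 member C2), *ostf1* and *bcap31*.

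For *dgat2* the closest, leaving aside its own second row (0.960), were the mitotic kinase gene *cdk1* (0.956), LOC113648745 (protein disulfide-isomerase-like, 0.955), LOC113654921 (sideroflexin-1), LOC113664000 (meprin A subunit beta, a brush border protease) and *cdc20*, a mitotic regulator (0.953). *cdk1* had 0.611 to 0.924 FPKM in Str, 6.61 to 22.3 FPKM in Rec and 2.14 to 6.20 FPKM in Ctrl, with Rec-2 highest as for *dgat2*. LOC113648745 was also among the 5 closest to the second *dgat2* row, together with LOC113642999, LOC113645260 (CD59 glycoprotein-like), the annotated *dgat2* row itself and LOC113640502 (phospholipase B1-like). No gene was among the 5 closest of more than 1 of the 3 members. The 9 libraries share the 3 groups, and these values rank genes and carry no test.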

How the data were processed

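Posterior intestine of 9 hybrid yellow catfish was sequenced, 3 libraries per group. Reads had been trimmed with Cutadapt by the authors and mapped to the *T. fulvidraco* genome. The submitters' processing notes name HISAT and StringTie, without versions, and the genome build, not given in the sources used here, could not be named. FPKM were computed and deposited by the authors, normalized for transcript length and library depth. The deposited expected counts, as the table calls them, are unscaled whole numbers, made in a way that was not stated. Low counts pile up at 4, 8 and 12.

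Groups were taken from the labels. Counts were tested with edgeR 4.0.16 in R 4.3.3 (TMM, 9 libraries in 1 fit, group as the only factor, two-sided quasi-likelihood F-test), on rows that reached 1 FPKM in 3 or more libraries. P-values were adjusted after Benjamini and Hochberg over the 17244 rows, and a gene rose or fell where this was below 0.05. The standard error of a log2 fold change was its size over the square root of F. Each p-value sets a group difference against the spread between fish, estimated over the 3 groups together with information from other rows. With few fish per group, this spread is poorly known. The fit was tested on simulated data. Alternatives used DESeq2 1.42.0, limma 3.58.1, other filters, scalings and sets of libraries.

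The 3 genes, the gene lists and the tests were chosen with earlier results of these data known. Named genes are the 3 members, all other loci of their enzyme families, in each list the up to 4 with the smallest p in Str compared with Ctrl and in Rec compared with Str, and for each member row the 5 with the highest Pearson correlation. Not all of these are printed, with or without a call. Left out above are, among others, LOC113652857 (apolipoprotein A-I-2-like), called higher in Rec compared with Str by edgeR, and LOC113635715 (seipin-like), called lower. *uvrag*, *zdhhc6*, *vti1a*, LOC113650338, LOC113638924 and *tectb* were named for their position, *gpam* for its position and role, and LOC113659499 and LOC113655586 for their role. LOC113658632 was named as a second LPIN1 locus. LOC113655586 and LOC113658632 are not in the counts of named calls. Protein and promoter sequences were not analysed here.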

Additional observations from a re-analysis of the deposited data

How the results depend on the processing

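No log2 fold change of the 3 genes changed sign under any alternative. The genes were chosen for being low in Str and high in Rec, so this lends no support. On log2(FPKM + 1) with limma, which compresses low levels, *acsl5* differed by -3.69 in Str compared with Ctrl and 4.32 in Rec compared with Str, and *dgat2* by -2.11 and 4.31. For the second *dgat2* row, with 23, 10 and 0 counts in Str, the differences of log2(FPKM + 1) were -1.55 and 4.11, which depend on the constant added and are neither fold changes nor bounds. Relative to enterocyte markers, chosen after seeing the data, *acsl5* differed by -4.55 and 5.10, *dgat2* by -2.33 and 4.66, and LOC113650341 by -0.24 and 0.75. DESeq2 called 2540 rows in Str compared with Ctrl (25 of the lists), 3193 in Rec compared with Str and 115 in Rec compared with Ctrl (6 of the lists), against 1014 (10), 1577 and 0 (0) by edgeR. Limma on log2(FPKM + 0.1) called 1 row in Rec compared with Ctrl. When the fit held just the 2 groups of the comparison, 677 rows (14 of the lists) were called in Rec compared with Str, against 1577 (30). With the replicate number as a block, 623 rows (4 of the lists) were called in Str compared with Ctrl and 893 (18) in Rec compared with Str. Same-numbered libraries correlated between -0.278 and 0.251 in their deviations from the group means, and different-numbered ones between -0.38 and 0.337. The number was therefore left out of the main fit. The sources read do not say what the numbers mean, and whether same-numbered fish shared a bag was not tested.

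Leaving out 1 library at a time gave 115 (without Ctrl-3) to 1423 rows in Str compared with Ctrl (1 to 15 of the lists, 1 without Ctrl-3 or Str-3), 247 (without Str-3) to 1525 in Rec compared with Str (2 to 30 of the lists, 2 without Str-3) and 0 to 2 in Rec compared with Ctrl (0 of the lists). Where this left 2 libraries in a group, the fit pooled the spread with the other groups. In Str compared with Ctrl, *acsl5* then ranged from -6.02 to -5.25, LOC113650341 from -1.83 to -1.29 and *dgat2* from -4.12 to -2.97. In Rec compared with Str they ranged from 6.09 to 6.80, 2.07 to 2.63 and 5.73 to 6.98. In Rec compared with Ctrl they ranged from 0.44 to 1.27, 0.61 to 0.95 and 1.93 to 3.59, and the second *dgat2* row from 2.19 to 4.53. By Spearman's rho, the genes closest to *acsl5*, *dgat2* and LOC113650341 by Pearson's r ranked 14th, 20th and 5th. Motifs in promoters were not searched, since no promoter sequence was used here. Precision is limited by 3 fish per group and, in Str, by counts of 19 to 89 for *acsl5* and 26 to 49 for *dgat2*.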

Other observations

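Over the 75 other rows that the table assigns to the KEGG glycerolipid metabolism pathway, a set looked at after the values were seen, edgeR called 4 higher and 5 lower in Str compared with Ctrl, and 9 higher and 7 lower in Rec compared with Str. Over all rows tested, edgeR called 2.78% higher and 3.1% lower in the first comparison, and 5.03% and 4.11% in the second. The median log2 fold changes of the pathway rows were 0.08 and 0.12, beside -0.002 and 0.03 over all rows. The calls include *lpin1*, *agpat3*, *lpin2*, *pnpla2* and LOC113645504, which are also among the 108 rows above. Apart from genes named above, those that rose in Str were the row that merges *nfkb1* and *dgkq*, diacylglycerol kinase theta (2.19, adjusted p = 0.0193 from edgeR), and LOC113638017 (MSTRG.1489, phospholipid phosphatase-related protein type 3-like, 2.25, adjusted p = 0.0371 from edgeR). *aldh2*, an aldehyde dehydrogenase of the mitochondrion, fell in Str (-1.95, adjusted p = 0.0226 from edgeR) and rose in Rec compared with Str (2.17). LOC113650790 (lipoprotein lipase-like) fell by 2.69 on the log2 scale in Rec compared with Str, and LOC113656563 (glycerol-3-phosphate acyltransferase 3-like) rose by 2.31.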
